A study of Mus musculus with 16 samples.

Results

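The genes described here are 10 regulators of the G1 phase of the cell cycle: the D-type cyclins Ccnd1, Ccnd2 and Ccnd3, the E-type cyclins Ccne1 and Ccne2, the CDK inhibitors Cdkn1a, Cdkn1b and Cdkn2c, and the transcription factors Myc and E2f1. They were chosen by symbol from the 22287 genes of the deposited count table, and all 10 were among the 12514 genes tested. RNA-seq was performed on bone marrow derived macrophages (BMDMs) from C57BL/6J mice, 8 weeks old, matured for 7 days with GM-CSF (GM) or M-CSF (M). The study seeded M-CSF cultures at a lower cell density than GM-CSF cultures. Comparisons of GM with M cells thus differ in both growth factor and seeding density, which cannot be told apart here. The dishes were either tissue culture treated, with a hydrophilic surface (TC), or untreated and hydrophobic (noTC). Each kind of culture received vehicle or LPS, a bacterial Toll-like receptor 4 agonist, for 3 h. This gave 8 groups of 2 libraries: GM-TC, GM-noTC, GM-TC-LPS, GM-noTC-LPS, M-TC, M-noTC, M-TC-LPS and M-noTC-LPS. The labels name the strain as the only genotype, and nothing in the methods describes a sort of the cells before RNA extraction.

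D-type cyclins, which growth factor signals induce, activate the kinases CDK4 and CDK6, and E-type cyclins activate CDK2. These kinases phosphorylate the retinoblastoma protein, which frees E2F factors such as E2f1 to drive genes of DNA replication, whereas CDK inhibitors hold the kinases back. M-CSF is the classical mitogen of macrophages, Myc is an immediate target of mitogen signals, and LPS is known to halt macrophage proliferation.

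Total counts lay between 17527802 and 31458363 per library. The lowest count of any of the 10 genes was 39, for Ccne2 in an M-TC-LPS library, so each gene stood above 3 counts everywhere. CPM below are scaled with edgeR's TMM factors, and p-values come from edgeR's quasi-likelihood test with Benjamini-Hochberg adjustment over all tested genes, with a threshold of 0.05. The replicates are called biological in the study, and the sources used here do not say whether they came from separate mice. The biological coefficient of variation was 4.75%, and with 2 libraries a side the smallest two-sided p of an exact permutation test is 0.333. The GM-TC replicates were the least alike, with a chi-square of 12.9 per gene against 1.92 to 5.27 in the other 7 groups. The 8 macrophage markers were all above 1 CPM in each group, and 5 LPS response genes summed to 23.7 to 282 CPM at steady state against 14930 to 19822 CPM upon LPS challenge. The 8 neutrophil markers summed to 8.79 to 22.7 CPM in GM libraries and at most 1.34 CPM in M libraries, and the 5 dendritic cell markers to 18.1 to 74.5 CPM and 1.03 to 3.29 CPM. The 5 heart muscle markers summed to 20.4 to 73.4 CPM on TC without LPS (4 libraries) and to at most 0.188 CPM elsewhere. The part of these cell types in the results below was not tested. In bulk libraries, a lower level cannot tell fewer cells that express a gene from less RNA per cell.

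**Figure D1:**
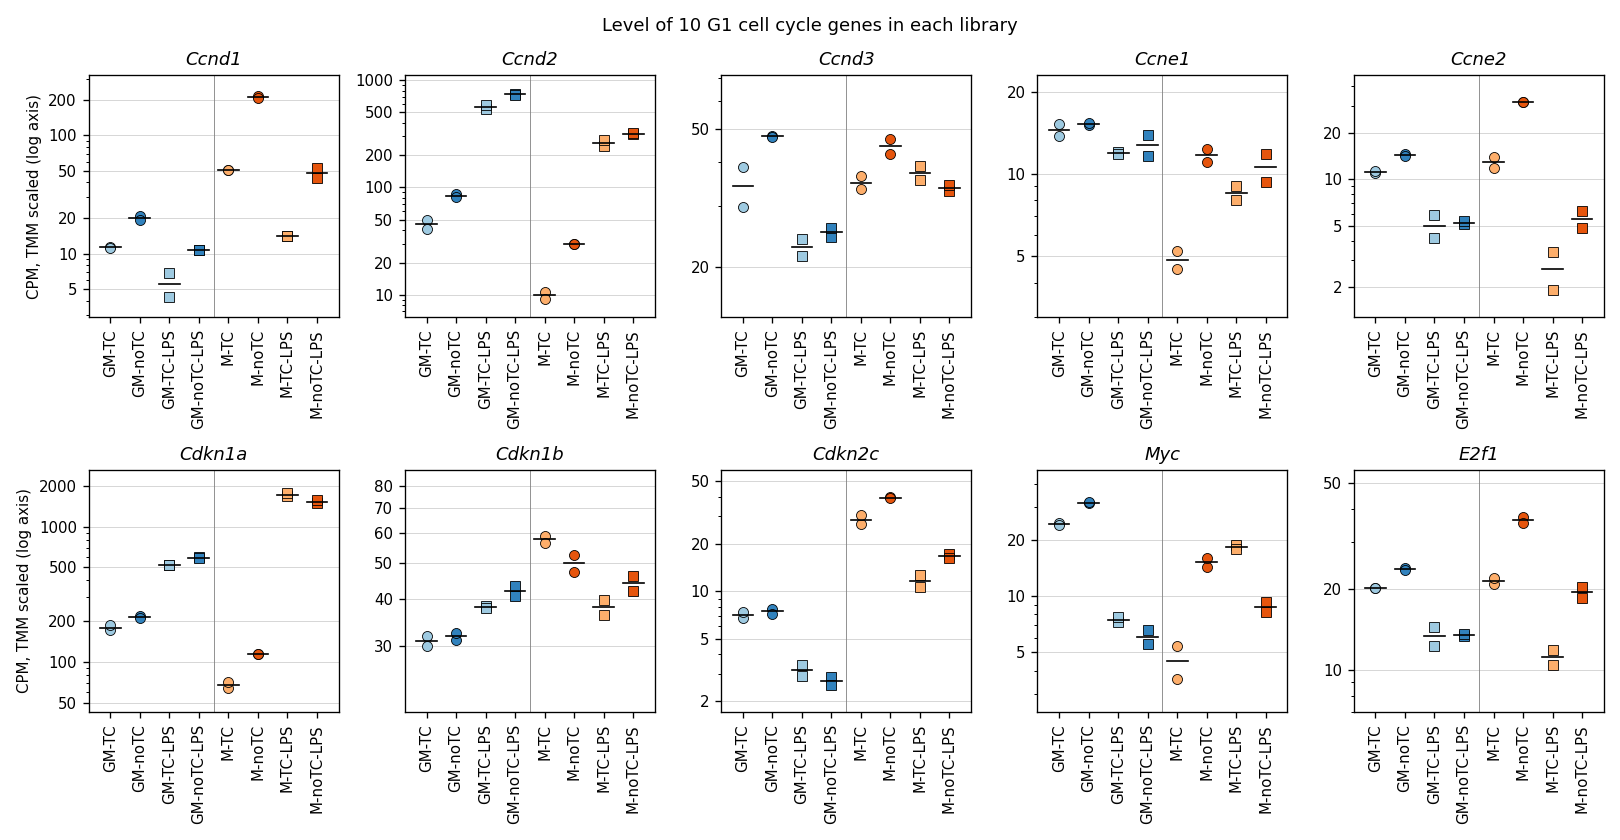
TMM scaled CPM of the 10 genes (log axis, a separate range for each gene) in the 16 libraries, with blue for GM, orange for M, the darker shade for noTC, circles for vehicle, squares for LPS and a line at the mean of the 2 libraries. Ccnd1 stood highest in M-noTC (217 and 205 CPM), Ccnd2 and Cdkn1a rose with LPS in all 4 settings, and Myc was higher with LPS in M-TC alone.

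Ccnd1 (ENSMUSG00000070348, chr7:144929931-144939925, minus strand) was highest in M-CSF cells on the noTC dish. Positions here and below are those of GENCODE M21 on GRCm38. At steady state it was at 217 and 205 CPM (M-noTC) and at 51.1 and 51.1 CPM (M-TC). In GM-CSF cells it was at 20.9 and 19.03 CPM (GM-noTC) and at 11.4 and 11.1 CPM (GM-TC). Neither the dishes nor the growth factors overlapped. The noTC dish gave a 4.12-fold higher level in M cells (log2 2.04, SE 0.08, adjusted p = 1.8e-13) and a 1.77-fold higher level in GM cells (log2 0.83, SE 0.12, adjusted p = 4.8e-05). The dish difference itself was larger in M than in GM cells by 1.22 on the log2 scale (SE 0.14, adjusted p = 5.2e-06).

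Upon LPS challenge, Ccnd1 fell in all 4 settings. It was at 52.6 and 43.8 CPM (M-noTC-LPS), 14.2 and 14.1 (M-TC-LPS), 10.7 and 10.8 (GM-noTC-LPS), and 6.83 and 4.32 (GM-TC-LPS). These levels were 4.37-, 3.61-, 1.86- and 2.03-fold lower than in the matched vehicle groups, with adjusted p of 6.4e-16, 3.6e-13, 6.9e-07 and 2.9e-06. The noTC libraries remained above the TC libraries without overlap, by 3.40-fold in M cells (log2 1.77, SE 0.11, adjusted p = 1.7e-10) and 1.95-fold in GM cells (log2 0.96, SE 0.15, adjusted p = 4.9e-04). The 2 GM-TC-LPS libraries differed by 1.58-fold, and without replicate 1 of that group the LPS response no longer differed past the threshold between GM and M cells on TC (0.47, adjusted p = 0.069). Exons of Ccnd1 share 1100 bases with LTO1 on the opposite strand. The sources used here do not state whether counting used strand, so reads there cannot be assigned. LTO1 itself spanned 7.68 to 21.9 CPM and stood at 13.0 to 14.99 CPM in the M groups at steady state, below Ccnd1. In GM cells LTO1 was near or above Ccnd1, at 21.7 to 21.9 CPM (GM-TC) and 18.5 to 19.1 CPM (GM-noTC). With LPS it was lower there, at no more than 13.3 CPM (GM-TC-LPS) and at 11.7 to 11.8 CPM (GM-noTC-LPS). The part of the shared bases in the levels and LPS response of Ccnd1 was not tested.

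Ccnd2 (ENSMUSG00000000184, chr6:127125162-127152193, minus strand), a D-type cyclin widely used by haematopoietic cells, had the opposite pattern for growth factor and LPS, but not for the dish. It was at 49.7 and 41.1 CPM (GM-TC), 86.9 and 81.2 (GM-noTC), 10.7 and 9.24 (M-TC), and 30.1 and 29.5 (M-noTC). Upon LPS challenge it reached 540 and 585 CPM (GM-TC-LPS), 747 and 725 (GM-noTC-LPS), 244 and 276 (M-TC-LPS), and 313 and 323 (M-noTC-LPS). All 8 LPS libraries stood above all 8 vehicle libraries. The rise was 12.4-fold in GM-TC, 8.76-fold in GM-noTC, 26.0-fold in M-TC and 10.7-fold in M-noTC, with adjusted p between 2.1e-21 and 1.3e-19. On the log2 scale these were 3.64, 3.13, 4.70 and 3.42. They were smaller with scaling by library size alone, at 3.16, 2.62, 3.88 and 2.69. GM cells held more Ccnd2 than M cells in each of the 4 settings, from 4.54-fold on TC at steady state (log2 2.18, SE 0.10, adjusted p = 1.6e-14) to 2.17-fold on TC upon LPS challenge (log2 1.12, SE 0.07, adjusted p = 5.3e-12).

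The noTC dish also raised Ccnd2 in all 4 settings. The log2 fold changes were 1.58 (SE 0.10) in M cells and 0.89 (SE 0.08) in GM cells at steady state, and 0.29 (SE 0.07) and 0.39 (SE 0.07) upon LPS challenge. The adjusted p were 1.8e-10, 1.3e-07, 0.0044 and 0.0019. After LPS the call was lost without GM-TC-LPS replicate 1 in GM cells (0.33, adjusted p = 0.088) and without M-TC-LPS replicate 1 in M cells (0.21, adjusted p = 0.10).

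Ccnd3 (ENSMUSG00000034165, chr17:47505051-47599691, plus strand), the most evenly expressed D-type cyclin in these libraries, spanned 2.08-fold between its highest and lowest group means, against 37.8-fold for Ccnd1 and 73.7-fold for Ccnd2. It was at 47.7 and 47.3 CPM (GM-noTC), 46.7 and 42.3 (M-noTC), 36.6 and 33.5 (M-TC), and 29.8 and 38.7 (GM-TC). The GM-TC replicates thus spanned the M-TC values. With LPS it was at 21.5 and 24.1 CPM (GM-TC-LPS), 24.4 and 26.0 (GM-noTC-LPS), 35.5 and 39.1 (M-TC-LPS), and 33.0 and 34.4 (M-noTC-LPS). It fell in GM-TC, GM-noTC and M-noTC (log2 -0.59, -0.91 and -0.40, adjusted p = 2.5e-05, 2.4e-08 and 6.1e-04). The M-TC difference was 0.09 (SE 0.10, adjusted p = 0.41), which turns to -0.74 when counts are scaled by library size alone. GM cells thus held less Ccnd3 than M cells upon LPS challenge, by -0.70 on TC (SE 0.10, adjusted p = 3.2e-06) and -0.42 on noTC (SE 0.10, adjusted p = 0.0010), while at steady state the differences were -0.02 (SE 0.09, adjusted p = 0.85) and 0.10 (SE 0.09, adjusted p = 0.34). The noTC dish raised it at steady state, by 0.46 in GM cells (SE 0.09, adjusted p = 0.0023) and 0.34 in M cells (SE 0.09, adjusted p = 0.0065). The GM call was lost in a fit of only the libraries of the comparison (0.47, adjusted p = 0.091). The M call was lost without M-TC replicate 2 or M-noTC replicate 1 (adjusted p = 0.11 and 0.10). With LPS the dish differences were 0.14 (SE 0.11) and -0.14 (SE 0.10), neither past the threshold. Exons of Ccnd3 share 361 bases with Bysl on the opposite strand, which was at 11.1 to 17.2 CPM.

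To compare the 3 D-type cyclins with each other, TMM scaled CPM were divided by the exonic length of the gene in kilobases. The share of each in their sum was taken within a library, where the scaling between libraries cancels. That length joins all annotated exons of a gene, 4.709 kb for Ccnd1, 9.409 kb for Ccnd2 and 8.775 kb for Ccnd3. The transcripts in use may be shorter, so the shares depend on this choice, and other lengths were not tested. Ccnd1 made up 68.3% ± 1.57 (SD, n = 2) of the sum in M-TC and 84.5% ± 0.10 in M-noTC. In GM-TC and GM-noTC its share was 21.5% ± 0.51 and 22.8% ± 0.59, and Ccnd2 made up 43.4% ± 5.90 and 48.1% ± 0.41. Upon LPS challenge Ccnd2 took 94.0% ± 0.56 in GM-TC-LPS, 93.8% ± 0.27 in GM-noTC-LPS, 79.2% ± 0.80 in M-TC-LPS and 70.6% ± 2.21 in M-noTC-LPS. With these lengths, the largest share in M cells thus passed from Ccnd1 to Ccnd2 within 3 h, on each dish. The summed D-type level per kilobase was 15.9 ± 0.36 in M-TC, 52.996 ± 2.16 in M-noTC and then 34.9 ± 2.69 and 47.9 ± 0.50 after LPS. It rose from 11.1 ± 0.027 to 63.6 ± 3.25 in GM-TC and from 18.6 ± 0.735 to 83.4 ± 1.56 in GM-noTC (TMM scaled CPM per kilobase, values with no test).

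**Figure D2:**
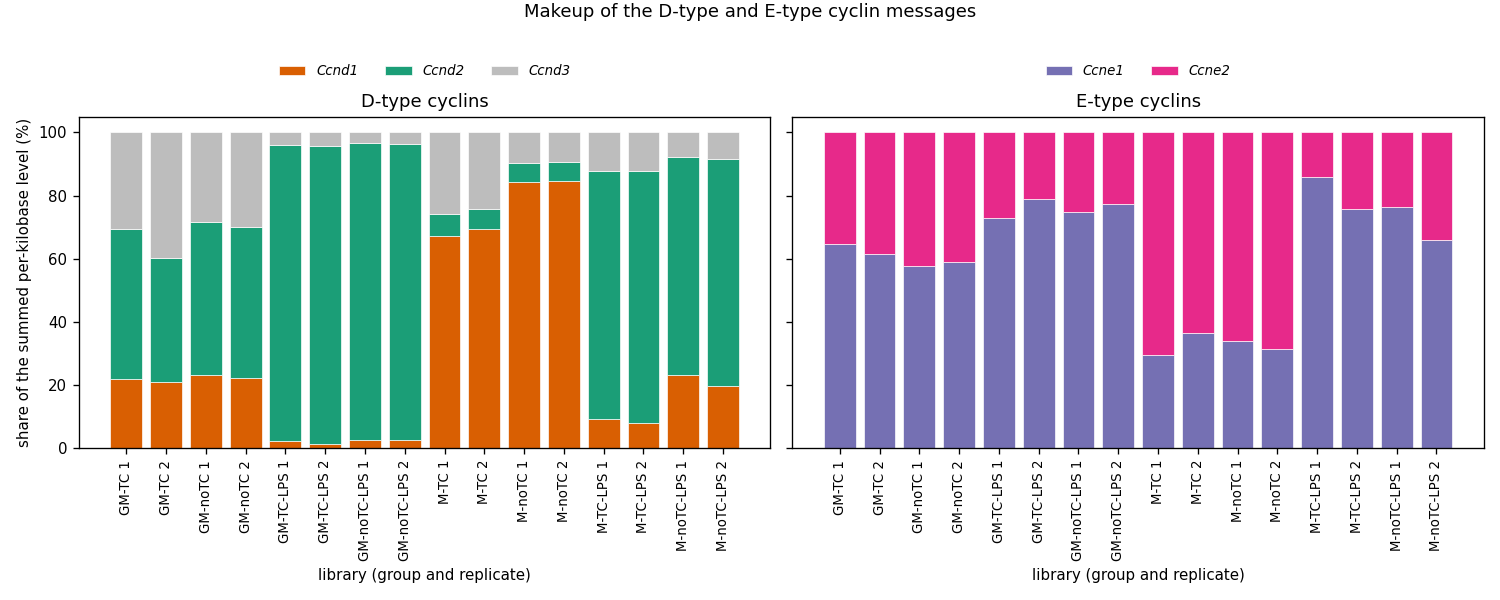
Share (%) of each D-type cyclin (left) and E-type cyclin (right) in the summed CPM per kilobase of its family, as stacked bars for each of the 16 libraries. The shares depend on the length used, which joins all annotated exons of a gene. Ccnd1 makes up 67% to 85% in the vehicle libraries of M cells, and Ccnd2 makes up 69% to 94% in all 8 LPS libraries.

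The E-type cyclins differed between growth factors and in their response to LPS. Ccne1 (ENSMUSG00000002068, chr7:38097984-38107534, minus strand) was at 15.3 and 13.8 CPM (GM-TC), 15.1 and 15.4 (GM-noTC), 4.47 and 5.24 (M-TC), and 12.3 and 11.1 (M-noTC). M-TC stood below the other 3 groups. The level was 2.98-fold higher in GM-TC than in M-TC (log2 1.58, SE 0.14, adjusted p = 1.0e-09) and 2.40-fold higher in M-noTC than in M-TC (log2 1.26, SE 0.13, adjusted p = 2.3e-07). In GM cells the dish difference was 0.08 (SE 0.12, adjusted p = 0.78), and it was larger in M cells by 1.19 (SE 0.18, adjusted p = 9.7e-05). With LPS, Ccne1 was at 11.996 and 11.8 CPM (GM-TC-LPS), 11.6 and 13.9 (GM-noTC-LPS), 9.01 and 8.02 (M-TC-LPS), and 11.9 and 9.33 (M-noTC-LPS). The rise in M-TC (log2 0.81, SE 0.15, adjusted p = 4.5e-05) was not seen with scaling by library size (-0.01). The decrease in GM-TC (log2 -0.28, SE 0.12, adjusted p = 0.048) lost its call in 10 of 16 fits that left out 1 library and with the replicate block. Scaled by library size, that decrease was larger, at -0.76 (edgeR adjusted p = 1.35e-05). The LPS response was then -0.77 in GM-noTC and -0.86 in M-noTC, both called, against -0.26 and -0.14 with TMM, neither called.

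Ccne2 (ENSMUSG00000028212, chr4:11191351-11204779, plus strand), the second E-type cyclin and a known E2F target, fell with LPS in all 4 settings. At steady state it was at 31.7 and 31.5 CPM (M-noTC), 14.0 and 11.9 (M-TC), 14.5 and 14.1 (GM-noTC), and 11.0 and 11.4 (GM-TC). Upon LPS challenge it was at 4.83 and 6.29 CPM (M-noTC-LPS), 1.92 and 3.37 (M-TC-LPS), 5.12 and 5.38 (GM-noTC-LPS), and 5.84 and 4.18 (GM-TC-LPS). No LPS library reached a vehicle library. The decrease was 5.68-fold in M-noTC, 4.99-fold in M-TC, 2.72-fold in GM-noTC and 2.24-fold in GM-TC (adjusted p = 4.4e-13, 1.6e-10, 3.0e-08 and 2.0e-06). It was larger in M than in GM cells on both dishes, by 1.16 on TC (SE 0.26, adjusted p = 0.0011) and 1.06 on noTC (SE 0.22, adjusted p = 5.5e-04) on the log2 scale. The noTC dish raised it in M cells by 2.44-fold at steady state and 2.14-fold after LPS (adjusted p = 4.8e-08 and 7.7e-04), while in GM cells the log2 fold changes were 0.36 (SE 0.14, adjusted p = 0.12) and 0.08 (SE 0.19, adjusted p = 0.91). GM cells were below M cells on noTC at steady state (log2 -1.14, SE 0.12, adjusted p = 2.4e-08) and above them on TC with LPS (log2 0.94, SE 0.22, adjusted p = 8.0e-04), a call that rested on M-TC-LPS replicate 1, the library of 1.92 CPM (0.56 and adjusted p = 0.051 without it). Exons of Ccne2 share 609 bases with Ints8 on the opposite strand, which moved the other way, from 21.6 to 26.8 CPM at steady state to 30.7 to 53.6 CPM with LPS.

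Per kilobase of joined exons, Ccne1 made up 63.1% ± 2.32 (SD, n = 2) of the E-type sum in GM-TC and 58.3% ± 0.80 in GM-noTC. Its share was 33.0% ± 5.01 in M-TC and 32.7% ± 1.60 in M-noTC. After LPS it was the larger part in each group, at 75.9% ± 4.15 in GM-TC-LPS, 76.1% ± 1.68 in GM-noTC-LPS, 80.9% ± 7.27 in M-TC-LPS and 71.2% ± 7.25 in M-noTC-LPS.

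Cdkn1a (ENSMUSG00000023067, chr17:29090976-29100727, plus strand), the CDK inhibitor known as the classical p53 target, was the strongest LPS responder of M cells among the CDK inhibitors. It was at 63.8 and 71.7 CPM (M-TC) and at 1693 and 1757 CPM (M-TC-LPS). On noTC it was at 114 and 114 CPM (M-noTC) and at 1502 and 1562 CPM (M-noTC-LPS). GM cells started higher and ended lower, with 171 and 186 CPM (GM-TC), 218 and 211 (GM-noTC), 523 and 522 (GM-TC-LPS), and 592 and 585 (GM-noTC-LPS). No vehicle library reached an LPS library. The rise was 25.5-fold in M-TC (log2 4.67, SE 0.06, adjusted p = 2.9e-24) and 13.4-fold in M-noTC (log2 3.75, SE 0.06, adjusted p = 5.0e-23). In GM cells it was 2.93-fold in GM-TC (log2 1.55, SE 0.06, adjusted p = 1.2e-16) and 2.74-fold in GM-noTC (log2 1.46, SE 0.05, adjusted p = 3.1e-16). With scaling by library size alone, these log2 values were smaller, at 3.84, 3.02, 1.07 and 0.95 in the same order. The difference between the GM and M responses was -3.12 on TC and -2.29 on noTC on the log2 scale (SE 0.08 each, adjusted p = 1.2e-17 and 1.4e-15). GM cells were thus 2.63-fold above M cells on TC at steady state and 3.30-fold below them upon LPS challenge. On noTC the same ratios were 1.88-fold above and 2.60-fold below.

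The dish moved Cdkn1a less. M-noTC was 1.68-fold above M-TC at steady state (log2 0.75, SE 0.06, adjusted p = 2.5e-09) and M-noTC-LPS was 1.13-fold below M-TC-LPS (log2 -0.17, SE 0.05, adjusted p = 0.021), a call that was lost without M-TC-LPS replicate 2 or M-noTC-LPS replicate 1 (adjusted p = 0.14 and 0.18). In GM cells the log2 fold changes were 0.27 (SE 0.06, adjusted p = 0.0032, and 0.078 without GM-noTC replicate 1) at steady state and 0.17 (SE 0.05, adjusted p = 0.10) with LPS. RefSeq gives 2 start sites for Cdkn1a, 3 and 2793 bases from the start of the GENCODE gene, and the 250 bases before each are shown because this gene had the highest counts of the 10 and the largest LPS response in M cells among the CDK inhibitors. They lie at chr17:29090729-29090978 and chr17:29093519-29093768 on GRCm38.p6, plus strand, written 5′ to 3′.
Cdkn1a upstream start: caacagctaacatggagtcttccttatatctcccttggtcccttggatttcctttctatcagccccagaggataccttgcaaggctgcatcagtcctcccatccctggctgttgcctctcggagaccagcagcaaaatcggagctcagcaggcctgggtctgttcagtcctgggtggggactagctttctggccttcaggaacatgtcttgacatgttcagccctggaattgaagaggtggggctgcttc
Cdkn1a downstream start: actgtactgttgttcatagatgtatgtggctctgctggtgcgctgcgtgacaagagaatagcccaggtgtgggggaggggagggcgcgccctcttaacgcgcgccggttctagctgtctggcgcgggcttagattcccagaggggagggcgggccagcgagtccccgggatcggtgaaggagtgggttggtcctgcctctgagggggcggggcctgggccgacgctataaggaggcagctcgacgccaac
RefSeq windows of 250 bases before to 50 after the start site were matched for 6 of the 10 genes (Ccnd3, Ccne1, Cdkn1a, Cdkn1b, Cdkn2c and E2f1), 9 windows in all, and none for Ccnd1, Ccnd2, Ccne2 and Myc. On both strands, the NF-kB consensus with 1 free base matched 0 of the 9 windows and 0.411% of 32817 promoters. The E2F motifs TTTCCCGC, TTTCGCGC, TTTGCCGC and TTTGGCGC matched 0 of the 9 and 2.26% of all. The E-box CACGTG, which Myc binds, matched 1 window, of Cdkn2c and 34 bases after the start site, and 7.15% of all. The p53 consensus without a spacer, searched after the sequences had been seen, matched 0 of the 9 and 0.00914% of all. That search asked for every letter to match, which few promoters do, so finding none says little about any window. A stretch 1 base off was not counted, such as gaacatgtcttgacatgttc in the upstream window of Cdkn1a. Capitals would mark an exact match, and the windows shown hold none. These searches say only that those letters are absent from those windows, which need not hold the promoter. The start site of E2f1 lies 466 bases inside the GENCODE gene, those of Cdkn2c 433 and 1817, and 1 of Ccnd3 88416. The windows of these start sites cover sequence within the gene.

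Cdkn1b (ENSMUSG00000003031, chr6:134920401-134925513, plus strand), the CDK inhibitor linked to quiescence, moved least of the 10, with 1.86-fold between its highest and lowest group means. It was at 58.9 and 56.3 CPM (M-TC), 47.1 and 52.5 (M-noTC), 32.0 and 30.0 (GM-TC), and 31.1 and 32.6 (GM-noTC). All 4 M libraries stood above the 4 GM libraries. The level in GM cells was 1.86-fold lower on TC and 1.57-fold lower on noTC (adjusted p = 4.1e-10 and 5.1e-08). Upon LPS challenge it was at 36.3 and 39.7 CPM (M-TC-LPS), 42.0 and 46.2 (M-noTC-LPS), 38.4 and 37.8 (GM-TC-LPS), and 43.3 and 40.8 (GM-noTC-LPS). The growth factors then overlapped, with log2 differences of 0.01 (SE 0.08, adjusted p = 0.95) and -0.07 (SE 0.07, adjusted p = 0.43). It fell in M-TC by 1.52-fold (log2 -0.60, SE 0.07, adjusted p = 1.5e-07). The rises in GM cells (log2 0.30 on TC and 0.40 on noTC) turned to -0.18 and -0.11 with scaling by library size alone. The difference between the GM and M responses was 0.90 on TC and 0.58 on noTC (adjusted p = 3.8e-07 and 1.0e-04). Between the dishes, Cdkn1b differed in M cells by -0.21 at steady state (SE 0.07, adjusted p = 0.026) and 0.22 with LPS (SE 0.08, adjusted p = 0.042), opposite in sign, and each call was lost when any of several single libraries was left out (adjusted p up to 0.28 and 0.30). In GM cells the dish differences were 0.04 and 0.14 (adjusted p = 0.81 and 0.43).

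Cdkn2c (ENSMUSG00000028551, chr4:109660876-109667189, minus strand), an inhibitor of CDK4 and CDK6, was a gene of M cells that fell with LPS. It was at 26.6 and 30.5 CPM (M-TC), 39.6 and 39.3 (M-noTC), 6.77 and 7.41 (GM-TC), and 7.70 and 7.21 (GM-noTC). With LPS it was at 10.7 and 12.7 CPM (M-TC-LPS), 17.1 and 16.3 (M-noTC-LPS), 2.90 and 3.39 (GM-TC-LPS), and 2.84 and 2.55 (GM-noTC-LPS). M libraries stood above GM libraries throughout, even those with LPS above GM without it. GM cells were 4.02- and 5.30-fold lower at steady state and 3.68- and 6.18-fold lower with LPS on TC and noTC (adjusted p between 1.9e-15 and 1.0e-10). The log2 LPS response was -1.17, -1.46, -1.30 and -1.24 in GM-TC and GM-noTC and then in M-TC and M-noTC, with SE of 0.15, 0.15, 0.10 and 0.09. The difference between the GM and M responses was 0.13 on TC (SE 0.19, adjusted p = 0.64) and -0.22 on noTC (SE 0.18, adjusted p = 0.37). The noTC dish gave 1.38- and 1.44-fold higher levels in M cells (adjusted p = 1.9e-04 and 0.0011) and log2 differences of 0.07 (SE 0.12) and -0.23 (SE 0.18) in GM cells.

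Myc (ENSMUSG00000022346, chr15:61985391-61990374, plus strand) was the only one of the 10 whose LPS response took opposite directions, each past the threshold under both TMM and library size scaling. At steady state it was at 24.6 and 24.1 CPM (GM-TC), 31.8 and 31.8 (GM-noTC), 3.59 and 5.43 (M-TC), and 14.4 and 16.1 (M-noTC). GM cells stood above M cells on each dish, by 5.37-fold on TC (log2 2.43, SE 0.13, adjusted p = 2.5e-13) and 2.07-fold on noTC (log2 1.05, SE 0.10, adjusted p = 6.7e-09). Upon LPS challenge it was at 7.24 and 7.71 CPM (GM-TC-LPS), 5.54 and 6.62 (GM-noTC-LPS), 18.7 and 18.0 (M-TC-LPS), and 8.21 and 9.28 (M-noTC-LPS). It fell by 3.25-fold in GM-TC (log2 -1.70, SE 0.12, adjusted p = 5.1e-11), 5.22-fold in GM-noTC (log2 -2.38, SE 0.12, adjusted p = 1.0e-13) and 1.75-fold in M-noTC (log2 -0.81, SE 0.12, adjusted p = 4.1e-06). In M-TC it rose by 4.05-fold (log2 2.02, SE 0.14, adjusted p = 8.0e-12), which is 1.19 with scaling by library size (adjusted p = 5.4e-08).

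The dish therefore moved Myc in opposite directions before and after LPS in M cells. M-noTC was 3.38-fold above M-TC (log2 1.76, SE 0.13, adjusted p = 1.6e-09), and M-noTC-LPS was 2.10-fold below M-TC-LPS (log2 -1.07, SE 0.13, adjusted p = 2.4e-06). The LPS response on noTC differed from that on TC by -2.83 in M cells (SE 0.18, adjusted p = 1.2e-09) and by -0.68 in GM cells (SE 0.18, adjusted p = 0.10). In GM cells the dish difference was 0.38 at steady state (SE 0.10, adjusted p = 0.022), which lost its call without GM-TC replicate 2, GM-noTC replicate 1 or GM-noTC replicate 2 (adjusted p = 0.081, 0.15 and 0.14), and -0.30 with LPS (SE 0.15, adjusted p = 0.41). The 2 M-TC libraries differed by 1.51-fold, on 90 counts or more, and the calls for the LPS response and the dish difference in M cells held without either of them.

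E2f1 (ENSMUSG00000027490, chr2:154559407-154569892, minus strand) followed Ccne2. At steady state it was at 37.4 and 35.4 CPM (M-noTC), 20.9 and 22.0 (M-TC), 24.0 and 23.7 (GM-noTC), and 20.2 and 20.2 (GM-TC). With LPS it was at 20.4 and 18.6 CPM (M-noTC-LPS), 10.4 and 11.9 (M-TC-LPS), 13.4 and 13.6 (GM-noTC-LPS), and 14.5 and 12.4 (GM-TC-LPS). It fell with LPS in all 4 settings, by 1.94-fold in M-TC, 1.86-fold in M-noTC, 1.77-fold in GM-noTC and 1.51-fold in GM-TC (adjusted p = 7.4e-09, 1.6e-09, 4.1e-08 and 8.0e-06). The noTC dish raised it in M cells, by 1.69-fold at steady state (log2 0.76, SE 0.08, adjusted p = 1.7e-07) and 1.76-fold with LPS (log2 0.81, SE 0.10, adjusted p = 3.0e-06). In GM cells the dish differences were 0.24 (SE 0.08, adjusted p = 0.092) and 0.01 (SE 0.10, adjusted p = 0.98), and those in M cells were larger by 0.52 (adjusted p = 0.0044) and 0.80 (adjusted p = 5.2e-04). On noTC, GM cells were below M cells, by -0.61 at steady state (SE 0.08, adjusted p = 4.5e-07) and -0.53 with LPS (SE 0.09, adjusted p = 3.7e-05), whereas on TC the differences were -0.09 (SE 0.09, adjusted p = 0.38) and 0.27 (SE 0.10, adjusted p = 0.028). The last was lost without GM-TC-LPS replicate 1 or M-TC-LPS replicate 1 (adjusted p = 0.29 and 0.24).

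Counted over the 10 genes, the LPS response passed the threshold for 10 in GM-TC (3 higher and 7 lower), 9 in GM-noTC (3 and 6), 9 in M-TC (4 and 5) and 9 in M-noTC (2 and 7). Of all tested genes, 67%, 67.7%, 74% and 72.3% passed in these comparisons, so most genes of the table responded as well. The share that was higher was 32.8%, 33.6%, 37.6% and 36.4%, and the share that was lower 34.2%, 34%, 36.4% and 35.9%. With a fold above 1.5 added, the counts were 8, 8, 9 and 7, against 41.6%, 41.1%, 51.7% and 47.8% of all genes. Ccnd2 and Cdkn1a rose in each comparison, and Ccnd1, Ccne2, Cdkn2c and E2f1 fell in each.

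**Figure D3:**
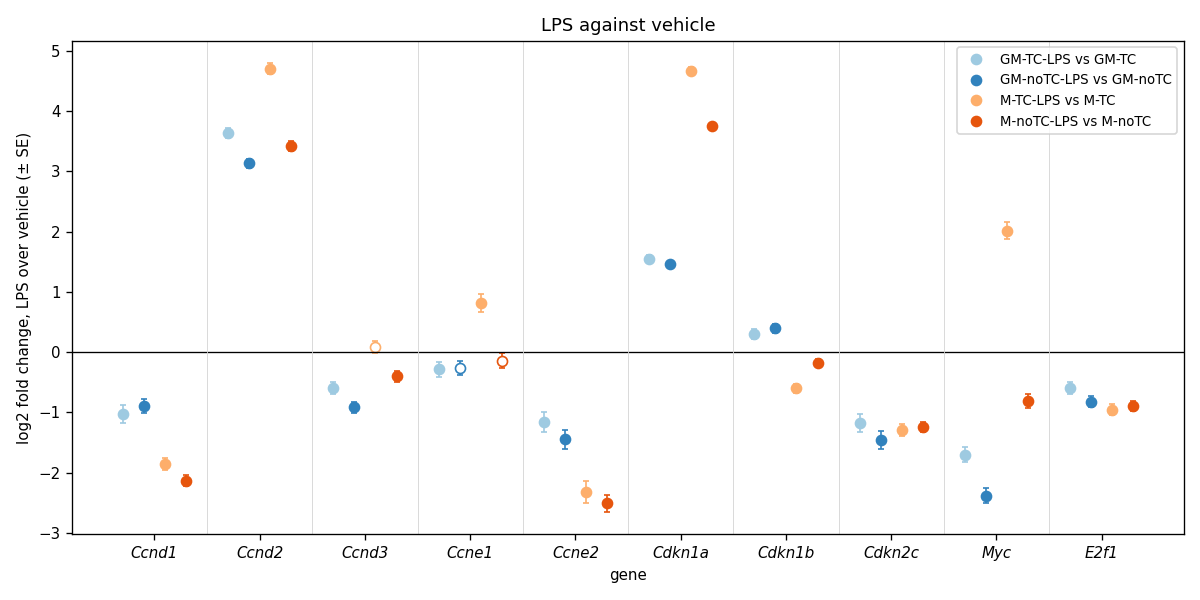
Log2 fold change of LPS over vehicle (± SE, edgeR) for the 10 genes in the 4 settings, with filled points for adjusted p under 0.05 and open points above it. Ccnd2 lies between 3.13 and 4.70, Cdkn1a is at 4.67 and 3.75 in M cells and 1.55 and 1.46 in GM cells, and Myc is at 2.02 in M-TC and below 0 in the other 3 settings.

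Comparing M-noTC with M-TC, all 10 genes passed the threshold, 9 higher and 1 lower (Cdkn1b), where 27.2% of all tested genes passed, 16.1% higher. With a fold above 1.5, 7 of 10 passed, against 7.88% of all genes. The median log2 fold change was 1.01 over the 10 genes and 0.01 over all genes. After LPS, 8 of 10 passed in M cells (6 higher and 2 lower, against 23.3% of all genes, 10.4% higher and 12.9% lower), and 4 with a fold above 1.5, against 5.47%. In GM cells, 5 of 10 passed at steady state, all higher, where 7.54% of all genes did, 4.69% higher. Without GM-noTC replicate 1 only 3 passed. Upon LPS challenge 2 of 10 passed, Ccnd1 and Ccnd2, both higher, where 2.8% of all genes did, 2.08% higher. With a fold above 1.5, 2 and 1 passed, against 2.55% and 0.871%. The heart muscle markers moved with the dish at steady state (5 of 5 above 1 CPM in each TC group and 5 of 5 at 0 in each noTC group), and their part in these counts was not tested. The 5 LPS response genes summed to 124 to 130 CPM in GM-noTC against 23.7 to 25.8 CPM in GM-TC. In M cells they summed to 273 to 282 CPM in M-noTC against 204 to 213 CPM in M-TC. A subtraction of a 0.675% or 0.600% share of the other groups' reads, estimated from genes under 1 CPM on TC at steady state that were abundant in the other libraries, left all dish calls of the 10 genes at steady state in place, with Ccnd2 at 0.87 in GM cells and 1.51 in M cells.

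**Figure D4:**
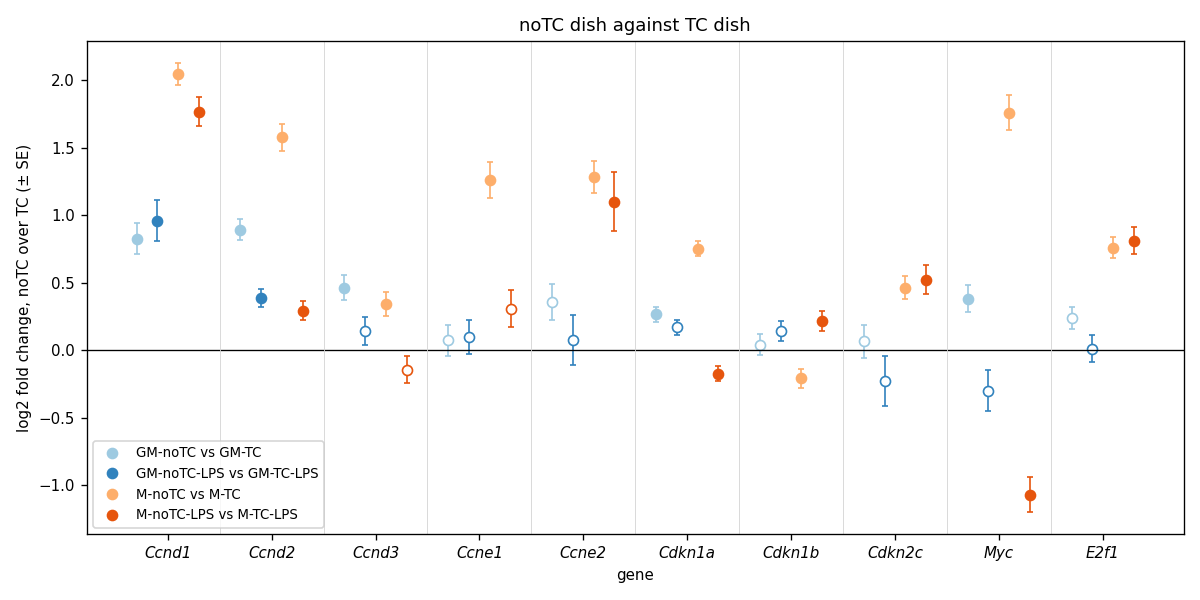
Log2 fold change of noTC over TC (± SE, edgeR) for the 10 genes in GM and M cells at steady state and with LPS, with filled points for adjusted p under 0.05 and open points above it. Ccnd1 is above 0 in all 4 comparisons, and Myc is at 1.76 in M cells at steady state and -1.07 after LPS.

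The dish difference was larger in M than in GM cells at steady state for 7 of 10 genes (Ccnd1, Ccnd2, Ccne1, Ccne2, Cdkn1a, Myc and E2f1), where 6.4% of all tested genes passed in that direction and 11.2% in either. With LPS, 6 of 10 differed, 4 in that direction and 2 (Cdkn1a and Myc) in the other, against 10.6% of all genes, 3.71% in that direction. Only 3 passed when GM-TC-LPS replicate 1, GM-noTC-LPS replicate 2 or M-TC-LPS replicate 1 was left out.

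Comparing GM with M cells, 7 of the 10 genes differed on TC at steady state (4 higher and 3 lower in GM) and 9 on noTC (4 and 5), where 61.5% and 62.1% of all genes did. Upon LPS challenge 9 differed on TC (4 and 5) and 7 on noTC (1 and 6), against 66.8% and 66.1%. The share of all genes that was higher in GM cells was 32.6% and 31.4% at steady state and 33.9% and 33.5% upon LPS challenge. With a fold above 1.5, the counts were 7, 8, 7 and 4 in these 4 comparisons, against 33.8%, 34.2%, 40.8% and 39.7%. Ccnd2 was higher and Ccnd1 and Cdkn2c lower in GM cells in each comparison. Cdkn1a and Myc were higher in GM cells at steady state and lower upon LPS challenge, on each dish. The last of these for Myc (-0.52 on noTC, SE 0.15, adjusted p = 0.0037) was lost without GM-noTC-LPS replicate 1 (-0.40, adjusted p = 0.057). The LPS response differed between GM and M cells for 9 genes on TC and 7 on noTC, against 41.1% and 36.2% of all genes. It differed between the dishes for 6 genes in M cells and 1 (Ccnd2) in GM cells, against 10.6% and 0.783%. That call of Ccnd2 (-0.51, SE 0.11, adjusted p = 0.021) was lost after the subtraction (adjusted p = 0.079).

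**Figure D5:**
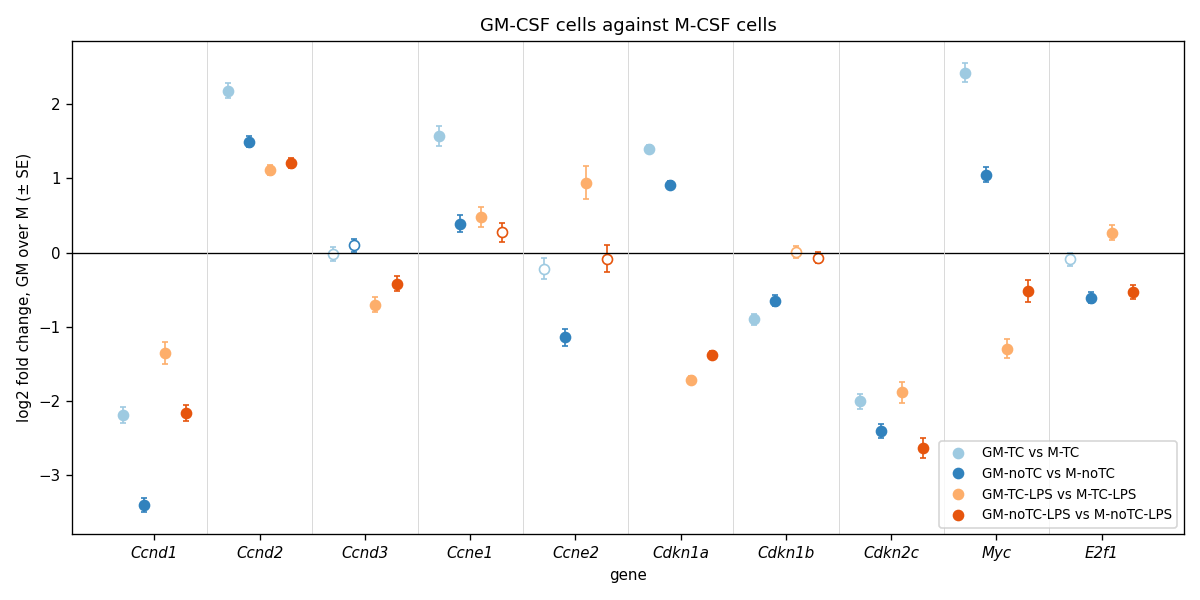
Log2 fold change of GM over M cells (± SE, edgeR) for the 10 genes on each dish, with vehicle or LPS, with filled points for adjusted p under 0.05 and open points above it. Cdkn1a and Myc lie above 0 with vehicle and below 0 with LPS, and Ccnd1 and Cdkn2c lie below 0 in all 4 comparisons.

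Other genes of the pathway were described as lists, with no test of the lists. Counts of a list are to be read against the shares of all tested genes given above, which with LPS were 32.8% to 37.6% higher and 34% to 36.4% lower. Of 18 E2F target genes of DNA replication, 18 were higher in M-noTC than in M-TC (median log2 fold change 0.97, with 0.01 over all genes, of which 16.1% were higher) and 17 in M-noTC-LPS than in M-TC-LPS (median 0.64, with 10.4% of all genes higher). Cdc6 and Orc1, which license replication origins, were among the largest at steady state (1.54 and 1.37), and Mcm2 of the replicative helicase was at 1.18. In GM cells 4 of 18 were higher on noTC at steady state and 0 with LPS, where 4.69% and 2.08% of all genes were higher. The dish difference was larger in M than in GM cells for 17 of 18 at steady state and 12 of 18 after LPS. Of all genes, 6.4% and 3.71% passed in that direction. LPS lowered 14 and 15 in GM cells on TC and noTC and 13 and 14 in M cells, with Cdc6 at -1.92, -1.89, -2.79 and -3.69, and raised 2, 2, 3 and 2.

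Of 24 other G1/S regulators, 16 were higher and 0 lower in M-noTC than in M-TC (median 0.42, with 16.1% of all genes higher), led by the E2F repressors E2f7 (1.15) and E2f8 (0.91) and by Ccna2 (0.79), the S phase cyclin. After LPS 9 of the 24 were higher and 2 lower in M cells on noTC (median 0.15, with 10.4% and 12.9% of all genes). The lower ones were E2f3 (-0.33) and E2f4 (-0.24), which had been higher at steady state (0.38 and 0.23). In GM cells 3 were higher and 1 lower on noTC, the CDK inhibitor Cdkn1c (-1.20). Of all genes, 4.69% were higher there and 7.54% passed in either direction. After LPS 0 were higher and 1 lower in GM cells, again Cdkn1c (-1.14), where 2.8% of all genes passed. LPS lowered 14, 14, 12 and 15 of the 24 and raised 5, 5, 7 and 5 in GM-TC and GM-noTC and then in M-TC and M-noTC, where 34.2%, 34%, 36.4% and 35.9% of all genes fell, with E2f2 at -4.33, -3.83, -5.28 and -4.50. Cdk6, the partner of D-type cyclins, was among those that rose in GM cells (1.78 on TC and 1.63 on noTC), and the CDK inhibitor Cdkn2b rose in M-TC (2.48).

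Of 12 partners in the MYC network, 10 were tested. With LPS, 3 of these rose and 4 fell in GM cells, on each dish (median 0.03 on TC and -0.05 on noTC). In M cells 5 rose and 4 fell on each dish (median 0.22 on TC, 0.30 on noTC). The list thus moved in both directions, with 30% higher and 40% lower in GM cells and 50% and 40% in M cells. The genes named next are single members of it. Mycl, a MYC paralogue, rose with LPS in M cells (7.80 on TC and 7.89 on noTC) and was higher in GM than in M cells at steady state (3.06 and 3.63) and lower upon LPS challenge (-3.42 and -3.86). Mxd1, a MYC antagonist, rose with LPS in each setting (2.60 and 2.87 in GM cells on TC and noTC, 3.48 and 3.85 in M cells), and the repressor Mnt fell (-2.49, -2.23, -4.89 and -4.63). Of 18 MYC target genes of the nucleolus and growth, 10 rose and 4 fell with LPS in M-TC (median 0.28), where 37.6% and 36.4% of all genes did. In GM-TC 6 rose and 7 fell (median -0.05), which is 33.3% and 38.9% of the list against 32.8% and 34.2% of all genes. Odc1 of polyamine synthesis rose most in M-TC (2.10). The LPS response was lower in GM than in M cells for 12 of the 18 on TC and 9 on noTC, and higher for 0, where 23.3% and 19.3% of all genes were lower. In M-noTC, where Myc itself fell, 8 of the 18 rose and 5 fell (median 0.15). That is 44.4% and 27.8% of the list, where 36.4% and 35.9% of all genes rose and fell.

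Of 14 p53 targets other than Cdkn1a, 12 were higher in GM than in M cells at steady state on each dish (median 0.91 and 0.84). Of all genes, 32.6% on TC and 31.4% on noTC were higher there. The death receptor Eda2r was at 4.24 on TC and 3.64 on noTC and Phlda3 at 3.60 and 3.35. Upon LPS challenge 10 on TC and 9 on noTC were higher in GM cells and 3 lower on each dish (median 0.91 and 0.80). The share of all genes that was higher was then 33.9% and 33.5%. With LPS, which raised Cdkn1a in each setting, 8, 9, 7 and 7 of the 14 fell and 2, 2, 4 and 3 rose in GM-TC and GM-noTC and then in M-TC and M-noTC. That is 57.1%, 64.3%, 50% and 50% of the list that fell, against 34.2%, 34%, 36.4% and 35.9% of all genes. Trp53inp1 was among those that fell (-2.48, -2.25, -2.87 and -2.18).

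Over the 16 libraries, which hold only 8 groups and share their depths, the log2 levels of E2f1 and Ccne2 had a Pearson's r of 0.95 and those of Ccnd1 and Cdkn2c of 0.90. The tested genes most like each of the 10 were Pole for Ccnd1 (0.97), Vcan and Cd44 for Ccnd2 (0.99 each), Ppp5c for Ccnd3 (0.91), Cltb for Ccne1 (0.94), Brca1 for Ccne2 (0.98), Casp8 for Cdkn1a (0.99), Zfp518a for Cdkn1b (0.94), Knstrn for Cdkn2c (0.99), Btbd8 for Myc (0.89) and Rrm2 for E2f1 (0.99). Myc thus had the lowest best match of the 10. These values describe shared differences between the same 8 groups.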

How the data were processed

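RNA-seq was performed on 16 libraries of mouse BMDMs, in 8 groups of 2. The authors removed low-quality reads, aligned clean reads with HISAT2 and used RSEM for quantification. The deposited values are expected counts per gene, not normalized by the authors. The genome build and annotation are not given in the sources used here. Groups and replicates were taken from the sample titles.

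Expected counts were rounded to whole numbers (6.56% to 8.19% of the values of a library were not whole). Of 16756 genes with a count, 12514 passed edgeR's expression filter by group. A quasi-likelihood fit over the 8 group means with TMM factors used edgeR 4.0.16 under R 4.3.3 and no block for the replicate number, and 18 contrasts were called at a Benjamini-Hochberg adjusted p under 0.05, with a fold above 1.5 as a second rule. The log2 levels used for correlations had a prior count of 2. The script was tested on simulated counts. Gene positions and exonic lengths (all exons of a gene joined) came from GENCODE M21 and promoter windows from RefSeq (GRCm38.p6). Total counts per library lay between 17527802 and 31458363, where 3 counts are 0.0954 to 0.171 CPM, for counting error only.

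The alternatives were DESeq2's size factors, library size only, no expression filter, a replicate block, only the libraries of a comparison, DESeq2 1.42.0, an unadjusted p under 0.05 with a fold above 1.5 (the study used this p with a fold above 2 or 1.5, depending on the comparison), a subtraction of a share of the other groups' reads from the noTC libraries at steady state, and leaving out each library in turn. The 10 genes, the gene lists and the rule that each of the 10 is named in every comparison, with the most alike genes and up to 4 list genes of the largest change, were chosen with earlier results of these data known. One gene of a list is not reported here by name.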

Additional observations from a re-analysis of the deposited data

Results flagged for a closer look

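The response to LPS or to the dish differed between settings, by edgeR's test of the difference itself, for 36 values of the 10 genes, given here on the log2 scale. Groups of 2 libraries are too small for a search for single libraries that stand apart, and no deposited column was left unused.

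Between GM and M cells on TC, the LPS response differed by 0.83 for Ccnd1, -1.07 for Ccnd2, -0.68 for Ccnd3, -1.09 for Ccne1, 1.16 for Ccne2, -3.12 for Cdkn1a, 0.90 for Cdkn1b, -3.72 for Myc and 0.36 for E2f1. A negative value means a lower response in GM cells. On noTC it differed, with Ccnd2 (-0.07) and Ccnd3 (-0.30) no longer called when scaled by library size only, by 1.24 for Ccnd1, -0.29 for Ccnd2, -0.52 for Ccnd3, 1.06 for Ccne2, -2.29 for Cdkn1a, 0.58 for Cdkn1b and -1.57 for Myc. Myc and Cdkn1a thus had the largest differences on each dish.

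Between the dishes, the LPS response on noTC differed from that on TC in GM cells by -0.51 for Ccnd2. In M cells it differed by -1.29 for Ccnd2, -0.49 for Ccnd3, -0.95 for Ccne1, -0.92 for Cdkn1a, 0.42 for Cdkn1b and -2.83 for Myc.

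The difference between noTC and TC was larger in M than in GM cells at steady state by 1.22 for Ccnd1, 0.69 for Ccnd2, 1.19 for Ccne1, 0.93 for Ccne2, 0.49 for Cdkn1a, 1.37 for Myc and 0.52 for E2f1. After LPS it differed by 0.81 for Ccnd1, 1.02 for Ccne2, -0.34 for Cdkn1a, 0.75 for Cdkn2c, -0.77 for Myc and 0.80 for E2f1. Leaving out 1 library ended some of these calls. The values after LPS for Ccnd1, Ccne2 and Myc lost theirs without GM-TC-LPS replicate 1 (0.45, 0.77 and -0.73, adjusted p = 0.20, 0.16 and 0.060 from edgeR), and those for Ccne2, Cdkn2c and Myc without M-TC-LPS replicate 1 (0.65, 0.63 and -0.74) or GM-noTC-LPS replicate 2 (1.06, 0.67 and -0.63). That of Ccne2 was also lost without GM-noTC-LPS replicate 1 or M-noTC-LPS replicate 2, that of Cdkn2c without GM-TC-LPS replicate 2 or M-noTC-LPS replicate 1, and that of Myc without M-noTC-LPS replicate 1. The LPS response of Ccnd2 lost its call between GM and M cells on noTC in 10 of 16 such fits and between the dishes in GM cells in 6. Between the dishes in M cells, that of Ccnd3 lost it without either M-TC or M-TC-LPS replicate 2, M-noTC replicate 1 or M-noTC-LPS replicate 1, and that of Cdkn1b without M-TC-LPS or M-noTC replicate 1 or M-noTC-LPS replicate 2. On TC, the value of 0.36 for E2f1 lost it without GM-TC replicate 2, GM-TC-LPS replicate 1, M-TC replicate 2 or M-TC-LPS replicate 1.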

How the results depend on the processing

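With scaling by library size only, the median of all genes moved to -0.53, -0.54, -0.83 and -0.73 in the LPS comparisons of GM-TC and GM-noTC and then in M-TC and M-noTC and to -0.29 between GM and M cells on each dish at steady state. Under it, 9 single values changed sign, 5 of them called before or after: Ccnd3 to -0.193 between GM-noTC and M-noTC and to -0.738 with LPS in M-TC, Ccne1 to -0.0135 with LPS in M-TC, and Cdkn1b to -0.180 and -0.109 with LPS in GM-TC and GM-noTC. The other 4, called under neither scaling, were Ccne1 in the LPS response of GM against M cells on noTC (0.098) and of noTC against TC in GM cells (-0.0034), Ccnd2 in the dish difference after LPS (0.012) and E2f1 between GM-noTC-LPS and GM-TC-LPS (-0.0064). Calls were also lost for Ccne1 between GM-noTC and M-noTC (0.098), Cdkn1a between M-noTC-LPS and M-TC-LPS (-0.084), Ccnd2 and Ccnd3 in the LPS response of GM against M cells on noTC (-0.069 and -0.30) and Ccnd3 in that of noTC against TC in M cells (-0.39). Another 7 values gained a call without a change of sign. Between GM-TC and M-TC these were Ccnd3 (-0.34), Ccne2 (-0.53) and E2f1 (-0.40). For Ccne1 they were LPS in GM-noTC (-0.77) and M-noTC (-0.86), and M-noTC-LPS against M-TC-LPS (0.40). The last was Cdkn2c in the LPS response of GM against M cells on TC (0.47).

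The counts of called genes stayed within 1.5 times the reported ones under DESeq2's size factors, library size only and DESeq2 in all 18 comparisons. The difference in LPS response between dishes in GM cells had 1 call, 2 without the expression filter, 0 with only the libraries of the comparison and 0 after the subtraction. GM-noTC against GM-TC had 5 calls, and 3 with only its own libraries. With an unadjusted p under 0.05 and a fold above 1.5, the counts were 4 in place of 7 between GM-noTC-LPS and M-noTC-LPS, 2 in place of 5 between GM-noTC and GM-TC, 1 in place of 2 between GM-noTC-LPS and GM-TC-LPS, 4 in place of 8 between M-noTC-LPS and M-TC-LPS, and 4 in place of 7 for the difference in LPS response between GM and M cells on noTC.

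With each library left out in turn, a group of 1 library was assumed to vary like the other groups. The counts then ranged from 0 to 2 for the difference in LPS response between dishes in GM cells, from 3 to 5 for GM-noTC against GM-TC (3 without GM-noTC replicate 1), from 1 to 3 for GM-noTC-LPS against GM-TC-LPS (1 without GM-TC-LPS replicate 1) and from 3 to 6 for the dish difference between M and GM cells after LPS. Of the single values in these fits, 2791 kept their side of the threshold, 77 lost it and 12 gained it, and none of these changed sign. Besides those named in the report, calls between 2 groups were lost for Ccne1 between GM-noTC and M-noTC without M-noTC replicate 2 (0.30, adjusted p = 0.089 from edgeR) and for Cdkn1b with LPS in M-noTC without M-noTC replicate 2 or M-noTC-LPS replicate 1 (adjusted p = 0.40 and 0.26). The cause was not tested.

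With the replicate number as a block, the counts were 9 in place of 10 for LPS in GM-TC, where Ccne1 (-0.28) had an adjusted p of 0.052 from edgeR, and did not change in the other 17 comparisons. The deviations of libraries with the same number correlated between -0.11 and 0.13 across 7983 genes in the 12 direct comparisons, and the sources used here do not say what the number marks, so the block was taken only as a check. Depth limited Ccne2 in M-TC-LPS most (39 and 58 counts), then Cdkn2c in the GM libraries with LPS (56 to 73 counts).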
